A study of Mus musculus with 8 samples.

Results

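The D-type cyclins and their partners decide whether a pre-B cell divides again. Described here are 10 genes of that circuit, the cyclins Ccnd1, Ccnd2 and Ccnd3, the kinases Cdk4 and Cdk6, the inhibitors Cdkn1a, Cdkn1b, Cdkn2c and Cdkn2d, and the growth regulator Myc, out of 12393 gene symbols on the MOE430A GeneChip. They were chosen by name, and every probe set annotated to 1 of them alone was taken, which gave 22 probe sets of 22626. RNA came from pre-BII cells, bone marrow B cell precursors sorted by the authors as B220+ CD25+, of Aiolos/OBF-1 double-mutant mice, mice lacking Aiolos alone (Aiolos mutant), mice lacking OBF-1 alone (OBF-1 mutant) and wild type mice. All mice were of the Bl6 strain and 7 weeks old according to the labels, and the mutations are homozygous (-/-). Each genotype had 2 arrays, 8 in all, each from an independent pool of mice. The labels describe each sample only as bone marrow and name neither the sort nor the pools, so both rest on the study's methods. Large cycling and small resting pre-BII cells were sorted together, so fewer cells of a type and less RNA per cell cannot be told apart in any value below. The study reports from cell size that the large majority of pre-BII cells were small and non-dividing in every genotype.

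OBF-1, encoded by Pou2af1, is a B cell coactivator that binds Oct factors on the octamer motif ATGCAAAT. Aiolos (gene Ikzf3) belongs to the Ikaros family of zinc finger factors, whose sites share the core TGGGAA. After the pre-B cell receptor signals, large pre-BII cells divide a few times with D cyclins bound to Cdk4 and Cdk6, which phosphorylate the retinoblastoma protein, and then leave the cycle as small pre-BII cells that rearrange light chain genes. The INK4 proteins encoded by Cdkn2c and Cdkn2d bind Cdk4 and Cdk6, whereas p21 and p27, encoded by Cdkn1a and Cdkn1b, bind cyclin-kinase complexes more broadly. Cyclin D3 is the D cyclin that mouse pre-B cells are known to need for their expansion. Myc drives growth of large pre-BII cells, and Ikaros family factors are known to restrain it there.

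Pou2af1 mRNA checked the labels for OBF-1 only, with an intensity of 170 and 273 in double-mutant cells, 2434 and 2842 in Aiolos mutant cells, 241 and 236 in OBF-1 mutant cells and 2761 and 2678 in wild type. Ikzf3 mRNA was not analysed here for want of a matched probe set, so the labels for Aiolos were not checked in this way. Of 7 measured pre-BII markers, only Pax5 stayed below 100 on every array, and Cd79a, Cd79b, Ptprc, Rag1 and Rag2 were all above it. Il2ra, which encodes the CD25 used in the sort, lay between 396 and 703. It was higher in the double mutant (log2 0.66, adjusted p = 0.00203 from limma) and in OBF-1 mutant cells (0.60, adjusted p = 0.0116) than in wild type, and higher in the double mutant than in the Aiolos mutant (0.47, adjusted p = 0.0338). Cd79b, a signalling chain of the pre-B cell receptor, was lower in the same 3 comparisons (-0.81, -0.48 and -0.74), and Rag2, a recombinase subunit, was higher in the double mutant than in wild type (0.70) or the Aiolos mutant (0.84). Granulocyte and monocyte mRNAs were high on every array, with only Itgam of 10 below 100 throughout. Their summed intensity was 27547 to 28049 in the double mutant, 25229 to 26023 in the Aiolos mutant, 27218 to 30753 in the OBF-1 mutant and 22194 to 22320 in wild type. Array medians lay between 66.7 and 69.4, and log2 values of arrays of 1 genotype correlated with r of 0.9961 to 0.9965 across probe sets, against 0.9878 to 0.9946 for arrays of different genotypes. Fluidics station 1 processed the double-mutant and Aiolos arrays, and station 2 the OBF-1 and wild type arrays. Loss of Aiolos and the station therefore cannot be told apart, whereas OBF-1 mutant against wild type and double mutant against Aiolos mutant each stay within 1 station and share no array.

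The promoters of the called genes that have an entry in RefSeq are shown first, because both factors are known through their DNA motifs. They are the 250 bases before each annotated start of Cdkn1a and Ccnd3 in GRCm38.p6, plus strand, and capitals mark TTCCCA, the TGGGAA core read on the opposite strand.
Cdkn1a, chr17:29090729-29090978: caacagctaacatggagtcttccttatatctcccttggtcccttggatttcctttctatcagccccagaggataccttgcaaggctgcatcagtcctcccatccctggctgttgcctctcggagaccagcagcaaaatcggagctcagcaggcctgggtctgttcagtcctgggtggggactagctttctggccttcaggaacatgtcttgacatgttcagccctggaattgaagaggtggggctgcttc
Cdkn1a, chr17:29093519-29093768: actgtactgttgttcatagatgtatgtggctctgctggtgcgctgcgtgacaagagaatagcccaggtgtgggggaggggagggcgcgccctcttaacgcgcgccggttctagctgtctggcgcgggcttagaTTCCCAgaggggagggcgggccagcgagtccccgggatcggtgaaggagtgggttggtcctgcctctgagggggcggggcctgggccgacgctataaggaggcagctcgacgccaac
Ccnd3, chr17:47504801-47505050: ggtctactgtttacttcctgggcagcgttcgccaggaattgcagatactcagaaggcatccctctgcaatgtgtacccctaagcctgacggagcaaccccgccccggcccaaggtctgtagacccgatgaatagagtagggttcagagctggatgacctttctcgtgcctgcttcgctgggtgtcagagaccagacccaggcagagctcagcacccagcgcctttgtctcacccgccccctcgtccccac
Ccnd3, chr17:47593217-47593466: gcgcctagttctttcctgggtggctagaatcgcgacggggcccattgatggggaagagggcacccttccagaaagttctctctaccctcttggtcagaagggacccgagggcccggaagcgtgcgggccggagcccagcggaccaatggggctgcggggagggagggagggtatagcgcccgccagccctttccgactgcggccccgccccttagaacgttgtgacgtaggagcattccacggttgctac
The letters ATGCAAAT, searched on both strands, were in none of the 10 windows of the 7 member genes with an entry, and in 1.60% of all 32851 windows. TGGGAA was in 3 of the 10 windows, 1 each of Cdk4, Cdkn1a and Cdkn2d, and in 21.6% of all windows. A match is a description of these letters, and its absence says only that they are not in the window. Ccnd1, Ccnd2 and Myc are named without a sequence.

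Ccnd2 mRNA, for cyclin D2, was lower than in wild type by 5 of 7 probe sets in the double mutant and by 4 of 7 in the OBF-1 mutant. Probe set 1416122_at read 154 and 203 in double-mutant cells, 266 and 316 in Aiolos mutant cells, 128 and 177 in OBF-1 mutant cells, and 311 and 360 in wild type. The 4 arrays without OBF-1 all lay below the 4 arrays with it. The share of all probe sets that split the arrays in this way was not counted, so this and later splits only describe the readings. The change against wild type was -0.92 in the double mutant (log2, standard error 0.17, adjusted p = 0.00465) and -1.16 in the OBF-1 mutant (standard error 0.17, adjusted p = 0.00314). Adjusted p-values here are from limma, corrected over all 22626 probe sets by Benjamini-Hochberg, and a probe set was called under 0.05.

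The arrays split in the same way with other Ccnd2 probe sets. With 1434745_at the double mutant read 79.7 and 119, the Aiolos mutant 142 and 171, the OBF-1 mutant 76.5 and 88.9, and wild type 193 and 210. This was -1.05 in the double mutant and -1.29 in the OBF-1 mutant on the log2 scale (adjusted p = 0.00186 and 0.00125 from limma), or 0.483 and 0.409 of the wild type level. With 1430127_a_at the readings were 101 and 150 in double-mutant cells, 164 and 188 in Aiolos mutant cells, 93.4 and 113 in OBF-1 mutant cells and 190 and 197 in wild type. Both groups without OBF-1 again lay below every array with it, by -0.65 in the double mutant and -0.91 in the OBF-1 mutant against wild type (log2, adjusted p = 0.029 and 0.0128 from limma).

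The 1455956_x_at probe set of Ccnd2, whose suffix marks probes shared with other transcripts, read 29.6 and 47.2 in double-mutant cells, 55 and 56.6 in Aiolos mutant cells, 33.3 and 41.3 in OBF-1 mutant cells and 87 and 106 in wild type. It was the member probe set with the lowest fold changes, -1.36 in the double mutant and -1.38 in the OBF-1 mutant (log2, adjusted p = 0.000678 and 0.00182 from limma). In the Aiolos mutant its change was -0.79 (95% interval -1.19 to -0.38), which did not pass (adjusted p = 0.0573 from limma) except with only the compared genotypes fitted (0.0225), a replicate block (0.0143) or a double-mutant array left out (0.0181 for either). The 1448229_s_at probe set read 42.9 and 62.1 in double-mutant cells, 67.8 and 83.9 in Aiolos mutant cells, 50.5 and 54.9 in OBF-1 mutant cells and 82.2 and 85.7 in wild type. It changed by -0.70 (log2) in double-mutant cells (adjusted p = 0.0159 from limma), and its change of -0.67 in the OBF-1 mutant missed the threshold (adjusted p = 0.0506), though it passed with a trend and robust fit (0.0395) or with only the compared genotypes fitted (0.00985). The last pair, 1416123_at and 1416124_at, read between 8.95 and 14 on every array, near the lowest intensities on the chips, and were called in no comparison.

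**Figure D1:**
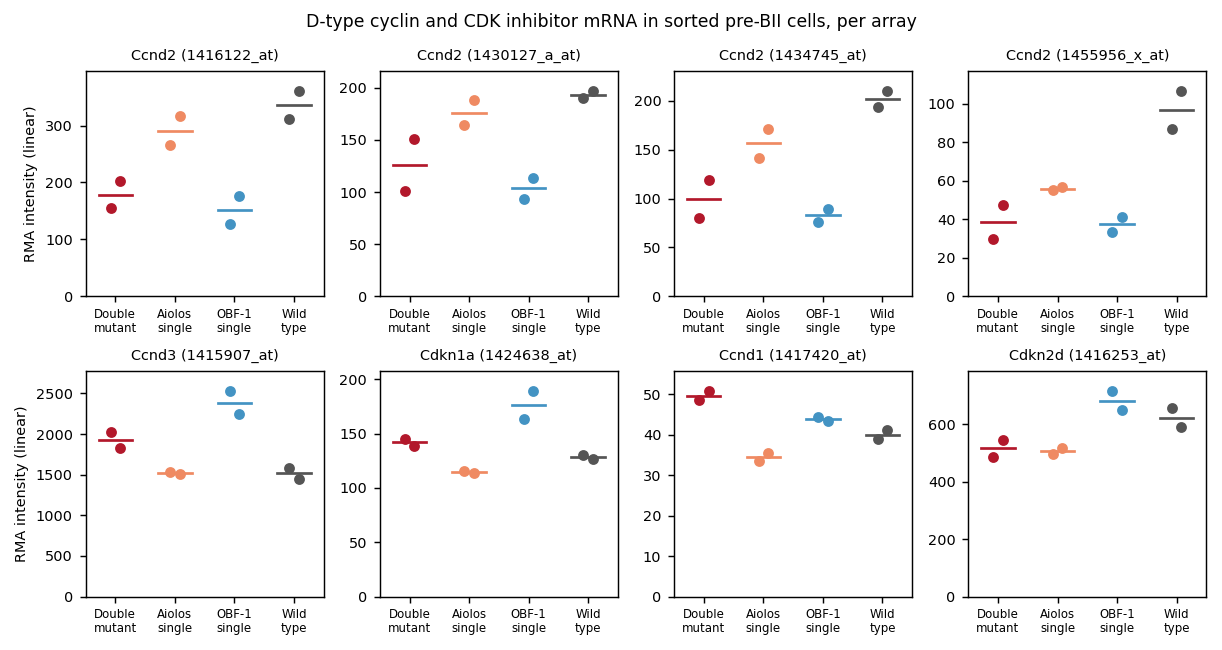
RMA intensity on a linear axis starting at 0 for 8 member probe sets, with a point per array (2 a genotype) and a line at the genotype mean. In the 4 Ccnd2 panels the 4 arrays without OBF-1 lie below the Aiolos mutant and wild type arrays. In the Ccnd3 panel the same 4 arrays lie above them, at 1832 or more.

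Ccnd3 mRNA, for cyclin D3, moved the other way. Its probe set, 1415907_at, read 2028 and 1832 in double-mutant cells, 1535 and 1507 in Aiolos mutant cells, 2525 and 2242 in OBF-1 mutant cells and 1585 and 1448 in wild type. Every array without OBF-1 lay above every array with it, and the OBF-1 mutant lay above the double mutant. The OBF-1 mutant was higher than wild type by 0.65 on the log2 scale, or 1.57-fold (standard error 0.10, adjusted p = 0.00522 from limma). In the double mutant the difference from wild type was 0.35 (95% interval 0.13 to 0.57, adjusted p = 0.0555), while the Aiolos mutant differed by 0.01 (interval -0.21 to 0.23, adjusted p = 0.983). The double-mutant difference passed under 5 alternatives, at adjusted p-values of 0.0189 to 0.0395.

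**Figure D2:**
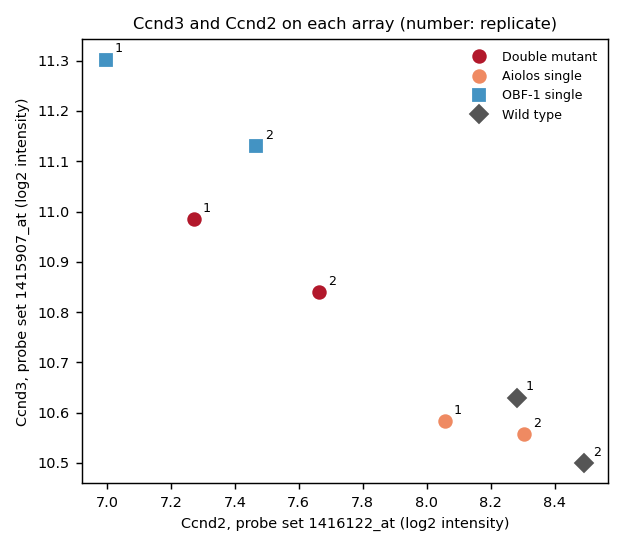
Ccnd3 (1415907_at) against Ccnd2 (1416122_at) as log2 intensity, 1 point per array, with the replicate number beside it. The 2 arrays each of the OBF-1 mutant and the double mutant sit at the upper left, with Ccnd2 at 7.66 or less and Ccnd3 at 10.84 or more.

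Ccnd1, for cyclin D1, which B-lineage cells are not known to rely on, was dim. Probe set 1417420_at read 48.6 and 50.7 in double-mutant cells, 33.4 and 35.6 in Aiolos mutant cells, 44.2 and 43.4 in OBF-1 mutant cells and 38.8 and 41.1 in wild type. It was 1.44-fold higher in the double mutant than in the Aiolos mutant (log2 0.53, standard error 0.09, adjusted p = 0.00707 from limma). Its difference from wild type was 0.31 in the double mutant (adjusted p = 0.0534) and 0.13 in the OBF-1 mutant (adjusted p = 0.587). The other pair of Ccnd1 probe sets was called in none of the 6 comparisons, with changes against wild type of 0.03 to 0.25 in the double mutant, so the Ccnd1 call rests on 1 of 3 probe sets and on intensities below 100.

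The kinase mRNAs were not called in any comparison. Cdk4, the kinase partner measured by 3 probe sets, read 248 and 262 in double-mutant cells, 266 and 256 in Aiolos mutant cells, 264 and 286 in OBF-1 mutant cells and 312 and 307 in wild type with 1422439_a_at. It differed from wild type by -0.28 in the double mutant (95% interval -0.48 to -0.08, adjusted p = 0.0863 from limma), -0.25 in the Aiolos mutant (adjusted p = 0.181) and -0.17 in the OBF-1 mutant (adjusted p = 0.46). Its double-mutant value passed when dim probe sets were left out (adjusted p = 0.0413 with those of at least 100, and 0.0457 with those of 100 to 1000) or when 16 was added before log2 (0.0373). The remaining Cdk4 probe sets differed from wild type by -0.20 and -0.16 in the double mutant, and by -0.06 and 0.01 in the OBF-1 mutant. Cdk6, its close relative, was measured by 1 probe set and read 22.9 to 32.5 over all 8 arrays, with a difference of 0.26 in the double mutant from wild type (interval -0.01 to 0.52, adjusted p = 0.25).

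Of the inhibitors, only Cdkn1a had a call. Its probe set 1424638_at read 145 and 139 in double-mutant cells, 116 and 114 in Aiolos mutant cells, 164 and 189 in OBF-1 mutant cells and 130 and 126 in wild type. The OBF-1 mutant was 1.37-fold above wild type (log2 0.45, standard error 0.10, adjusted p = 0.0333 from limma). The double mutant lay above the Aiolos mutant by 0.31 without passing (interval 0.09 to 0.52, adjusted p = 0.139 from limma). With 1421679_a_at, the OBF-1 mutant read 71.4 and 65.3 against 56.1 and 57.2 in wild type, a difference of 0.27 (interval 0.05 to 0.49, adjusted p = 0.246).

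Cdkn1b, for p27, differed between its probe sets. With 1434045_at it read 202 and 233 in double-mutant cells, 238 and 263 in Aiolos mutant cells, 230 and 262 in OBF-1 mutant cells and 192 and 292 in wild type, where the wild type arrays bracketed all others. With 1419497_at, at 17.9 to 27.7 over all arrays, the double mutant lay 0.42 below the OBF-1 mutant on the log2 scale (interval -0.64 to -0.19, adjusted p = 0.0565 from limma). Neither probe set was called, although the 1419497_at difference passed without double-mutant replicate 2 (0.0476).

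The INK4 genes, well above 100 on every array, were not called. Cdkn2c, for p18, read 563 and 618 in double-mutant cells, 536 and 455 in Aiolos mutant cells, 591 and 620 in OBF-1 mutant cells and 487 and 536 in wild type. Its change was 0.26 for double mutant against Aiolos mutant (interval 0.02 to 0.49, adjusted p = 0.264 from limma) and 0.24 for OBF-1 mutant against wild type (interval 0.01 to 0.48, adjusted p = 0.35).

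Cdkn2d, for p19, split the arrays the other way. It read 486 and 547 in double-mutant cells, 496 and 518 in Aiolos mutant cells, 714 and 650 in OBF-1 mutant cells and 655 and 589 in wild type, so the 4 arrays without Aiolos lay below the 4 with it, which is also the split by fluidics station. The largest difference, double mutant against OBF-1 mutant, was -0.40 (interval -0.63 to -0.18, adjusted p = 0.0651 from limma). It passed with a trend and robust fit (adjusted p = 0.0334), with quantile normalization applied again (0.0426) and with both intensity filters (0.0407 and 0.0412).

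Myc read 49.6 and 56.8 in double-mutant cells, 52.6 and 56.8 in Aiolos mutant cells, 59.5 and 49.1 in OBF-1 mutant cells and 46.9 and 50.2 in wild type. The OBF-1 and double mutants overlapped with wild type and the Aiolos mutant lay above it, and the difference from wild type was 0.13 in the double mutant (interval -0.12 to 0.38), 0.17 in the Aiolos mutant (-0.08 to 0.42) and 0.16 in the OBF-1 mutant (-0.09 to 0.41). No difference was called, and those intervals leave room for a rise of up to 0.42 on the log2 scale.

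**Figure D3:**
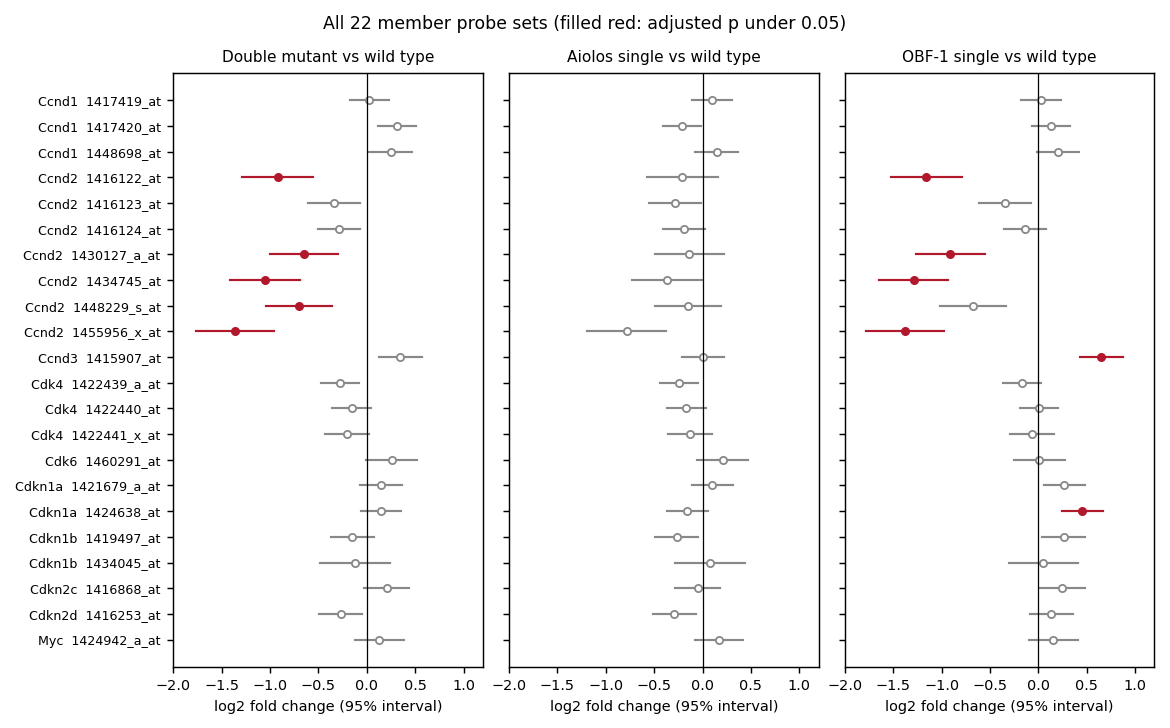
Log2 fold change against wild type with its 95% interval for all 22 member probe sets (rows) in the double mutant, the Aiolos mutant and the OBF-1 mutant (panels, 2 arrays a genotype); filled red points had an adjusted p under 0.05. Red points are Ccnd2 in the double mutant, and Ccnd2, Ccnd3 and Cdkn1a in the OBF-1 mutant, with none in the Aiolos mutant.

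Counted over all members, the double mutant against wild type had 5 of 22 probe sets called, all Ccnd2 and all lower, where 8.57% of all probe sets tested were called, 4.29% higher and 4.28% lower. The OBF-1 mutant against wild type had 6 of 22, with 4 lower (all Ccnd2) and 2 higher (Ccnd3 and Cdkn1a), against 2.09% of all probe sets, 1.14% lower and 0.946% higher. The Aiolos mutant against wild type had 0 of 22 called by limma against 1.84% of all, 0.831% higher and 1.01% lower, with 7 at an unadjusted p under 0.05 and 0 without moderation of variances. The median log2 change of the members was -0.15 in the double mutant, -0.16 in the Aiolos mutant and 0.02 in the OBF-1 mutant, beside 0.01, 0.03 and 0.02 over all probe sets. Since 7 of the 22 probe sets measure Ccnd2, these counts are not counts of separate genes. The 5 Ccnd2 probe sets that were called varied together, with r of 0.902 to 0.983 between pairs over the 8 arrays, which share 4 genotypes.

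Within 1 station, and with Aiolos absent from both groups, the double mutant against the Aiolos mutant had 3 of 22 probe sets called, where 2.95% of all were called, 1.75% higher and 1.19% lower. They were Ccnd1 1417420_at and, lower, Ccnd2 1416122_at (log2 -0.71, standard error 0.17, adjusted p = 0.0414 from limma) and Ccnd2 1434745_at (-0.68, standard error 0.16, adjusted p = 0.0495). Both Ccnd2 calls sat near the threshold. The call of 1416122_at was kept under 9 alternatives and lost under 9, and that of 1434745_at was kept under 6 and lost under 12. Both were lost on leaving out double-mutant replicate 1 or Aiolos replicate 2. All 7 Ccnd2 probe sets had a negative change in this comparison and in OBF-1 mutant against wild type, which shares no array with it. For Ccnd3 the change was 0.34 here (adjusted p = 0.111) and 0.65 there, and for Cdkn1a 1424638_at it was 0.31 and 0.45.

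Averaging the changes from both comparisons, a fit added after the data had been seen, gave the effect of losing OBF-1 over both stations. In it 8 of 22 probe sets were called, where 5.02% of all were called, 2.72% higher and 2.29% lower. The lower ones were 5 of Ccnd2, with log2 changes of -0.61 to -0.99 and adjusted p-values of 0.000289 to 0.00623 from limma. The higher ones were Ccnd3 (0.50, standard error 0.07, adjusted p = 0.00129), Cdkn1a 1424638_at (0.38, adjusted p = 0.00615) and Ccnd1 1417420_at (0.33, adjusted p = 0.00957). Cdkn2c reached 0.25 without passing (adjusted p = 0.0931).

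**Figure D4:**
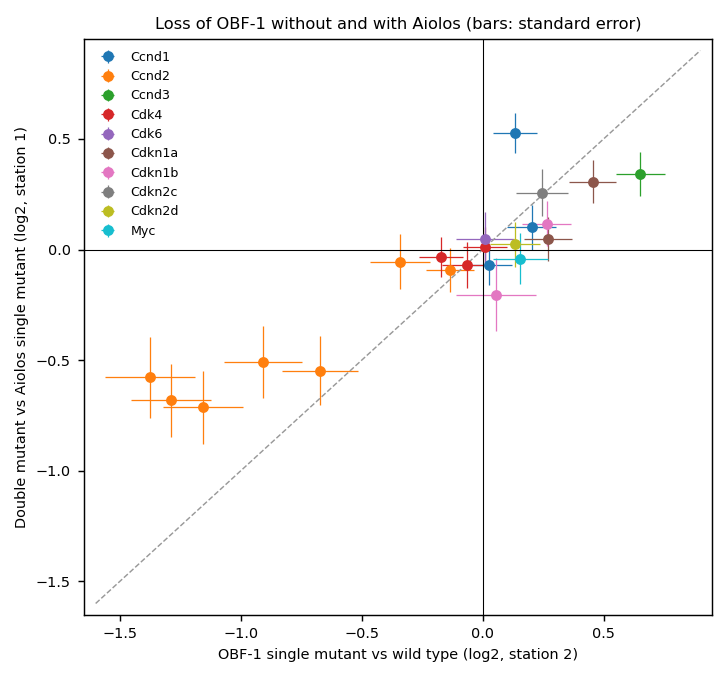
Log2 fold change of the 22 member probe sets with standard errors, for double mutant against Aiolos mutant (vertical axis, station 1) and OBF-1 mutant against wild type (horizontal axis, station 2), which share no array; the dashed line marks equal changes. The 5 Ccnd2 probe sets called in the double mutant lie at the lower left, between -0.51 and -0.71 on the vertical axis. At the upper right are Ccnd3 (horizontal 0.65, vertical 0.34) and Cdkn1a 1424638_at (horizontal 0.45, vertical 0.31).

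The effect of losing OBF-1 was not shown to depend on Aiolos. The interaction of the deletions was called for 0 of 22 member probe sets by limma, where 0.186% of all were called, 0.155% higher and 0.0309% lower, with 3 members at an unadjusted p under 0.05 and 0 without moderation of variances. For Ccnd2 1455956_x_at the interaction was 0.80 (interval 0.23 to 1.37, adjusted p = 0.315), for 1434745_at it was 0.61 (0.10 to 1.12, adjusted p = 0.364) and for Ccnd3 it was -0.31 (-0.62 to 0.00, adjusted p = 0.425). Ccnd1 1417420_at had 0.39 (0.11 to 0.67, adjusted p = 0.314). The double mutant against the OBF-1 mutant likewise had 0 of 22 called by limma, where 2.63% of all were called, 1.61% higher and 1.03% lower, with 4 at an unadjusted p under 0.05 and 0 without moderation. The 5 Ccnd2 probe sets called against wild type differed by -0.03 to 0.26 in that comparison, with intervals that reached from -0.39 to 0.62.

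Granulocyte and monocyte mRNAs moved with some of these results. Of the 10 markers, 7 were higher in the double mutant and 4 in the OBF-1 mutant than in wild type, while limma called 0 in the Aiolos mutant against wild type (5 at an unadjusted p under 0.05) and 0 in the double mutant against the Aiolos mutant (2 unadjusted). Over all probe sets, 4.29% were called higher in the double mutant, 0.946% in the OBF-1 mutant and 0.831% in the Aiolos mutant against wild type. The share was 1.75% in the double mutant against the Aiolos mutant. The part of these markers in the Ccnd2, Ccnd3 and Cdkn1a changes was not tested. The median log2 change of these markers was 0.45 in the double mutant against wild type, 0.22 in the Aiolos mutant, 0.30 in the OBF-1 mutant and 0.11 in the double mutant against the Aiolos mutant. The sum over 6 genes listed as markers of pro-B and pre-BI cells, the stages before pre-BII, was 9262 to 9572 in the double mutant, 4551 to 4957 in the Aiolos mutant, 1312 to 1328 in the OBF-1 mutant and 775 to 807 in wild type. Of these 6, 4 were higher than wild type in the double mutant, 4 in the Aiolos mutant and 2 in the OBF-1 mutant, and 3 were higher in the double mutant than in the Aiolos mutant. Most of the double-mutant sum came from the surrogate light chain genes Igll1 and Vpreb1, which averaged 5656 and 3360 in double-mutant cells, against 304 and 193 in wild type. By RT-PCR of sorted cells, the study reports Igll1 mRNA as sustained in small pre-BII cells of the double mutant. Kit, a defining marker of pro-B and pre-BI cells, stayed below 100 on every array. It averaged 43.6 in double-mutant cells, against 39.6 in wild type (log2 0.14, adjusted p = 0.462 from limma). Flt3 averaged 106 in double-mutant cells, against 109 in wild type (-0.05, adjusted p = 0.854 from limma). Dntt and Spn were higher in the double mutant (0.59 and 0.95) and in Aiolos mutant cells (0.45 and 0.51) than in wild type. Both were dim in wild type, Dntt at 68.7 and 72.5 and Spn at 74.6 and 75.1. The Dntt probe set has probes shared with other transcripts. The study reports the mRNA of Dntt, and of Rag1 and Rag2, as unaltered in these mutants, without showing the data. The part of these 6 markers in the member changes was not tested.

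Markers of other stages and lineages also differed. The 4 measured genes of immature and mature B cells summed to 2404 to 2411 in double-mutant cells, 2999 to 3395 in Aiolos mutant cells, 2907 to 3026 in OBF-1 mutant cells and 3667 to 3953 in wild type. Ms4a1, for CD20, was at 0.251 times its wild type level in double-mutant cells (limma adjusted p = 1.6e-07) and at 0.605 times in OBF-1 mutant cells (adjusted p = 0.00152), and in the double mutant it was at 0.312 times its level in the Aiolos mutant. Cd22, an inhibitory receptor of B cells, was higher in the double mutant than in wild type (log2 0.44) or the Aiolos mutant (0.60), and Fcer2a, which stayed below 100 on every array, was lower in the double mutant than in wild type (-0.54).

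Among 4 plasma cell markers, Sdc1, for CD138, was higher in the double mutant (log2 0.98) and in OBF-1 mutant cells (0.84) than in wild type, and in the double mutant than in the Aiolos mutant (0.89). No other of the 4 was called in these comparisons, and the list summed to 1736 to 1829 in double-mutant cells, 1274 to 1428 in Aiolos mutant cells, 1555 to 1655 in OBF-1 mutant cells and 1235 to 1260 in wild type. Among 4 measured erythroid markers, Klf1 was higher than wild type in the double mutant (0.69) and in OBF-1 mutant cells (0.89), and the list summed to 420 to 513 in double-mutant cells, 379 to 495 in Aiolos mutant cells, 454 to 601 in OBF-1 mutant cells and 370 to 372 in wild type. Of 6 T cell markers, 5 were below 100 on every array. The part of these lists in the member changes was not tested.

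Among regulators known to act upstream of the circuit, 2 rose and 4 fell of 16 measured in the double mutant against wild type. Over all probe sets 4.29% were called higher and 4.28% lower in that comparison. Il7r, the interleukin-7 receptor that drives precursor proliferation, read 3071 and 3542 in double-mutant cells, 2287 and 2031 in Aiolos mutant cells, 2679 and 2704 in OBF-1 mutant cells and 1773 and 1824 in wild type. Its change against wild type was 0.88 in the double mutant and 0.58 in the OBF-1 mutant (log2, adjusted p = 0.00021 and 0.0115 from limma). Irf4, a factor that promotes light chain rearrangement and exit from the cycle, rose by 0.69 in the double mutant and 0.51 in the OBF-1 mutant (adjusted p = 0.00127 and 0.0232). Both were also higher in the double mutant than in the Aiolos mutant, Il7r by 0.61 and Irf4 by 0.59 (adjusted p = 0.00578 and 0.00793).

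Id3, an inhibitor of E proteins, read 95 and 104 in double-mutant cells, 143 and 133 in Aiolos mutant cells, 151 and 150 in OBF-1 mutant cells and 216 and 178 in wild type. Against wild type it changed by -0.98 in double-mutant cells and by -0.51 in the Aiolos mutant (log2, adjusted p = 0.000141 and 0.0413 from limma). Its change in the OBF-1 mutant was -0.38 (adjusted p = 0.118). The double mutant was also lower than the Aiolos mutant (-0.47, adjusted p = 0.0386) and the OBF-1 mutant (-0.60, adjusted p = 0.013). Ebf1, a B-lineage factor, changed by -0.51 in double-mutant cells and by -0.58 in Aiolos mutant cells (adjusted p = 0.0177 and 0.0297). Klf2, a quiescence factor, changed by -0.49 in double-mutant cells and by -0.58 in Aiolos mutant cells (adjusted p = 0.0386 and 0.0483). For Ebf1 and Klf2 every array without Aiolos lay below every array with it, which is also the split by fluidics station. Within station 1, the double mutant differed from the Aiolos mutant by 0.07 for Ebf1 and 0.09 for Klf2. Irf8, which acts alongside Irf4, was called in the double mutant, at -0.47 (adjusted p = 0.036). No regulator of the list was called lower in the OBF-1 mutant against wild type.

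Of 20 measured partners in the passage from G1 to S phase, 1 rose and 1 fell in the double mutant against wild type. Over all probe sets 8.57% were called in that comparison, so this count lies near the share of the whole chip. Rbl2, a pocket protein of resting cells, read 178 and 214 in the double mutant, against 139 and 129 in wild type (log2 0.54, adjusted p = 0.0295 from limma). Cks1b, a subunit of the complex that marks p27 for degradation, read 418 and 545 in the double mutant, against 680 and 785 in wild type (-0.62, adjusted p = 0.00991). Its readings were 506 and 532 in the Aiolos mutant (-0.49 against wild type, adjusted p = 0.0724 from limma) and 756 and 794 in the OBF-1 mutant. It was also called lower in the double mutant than in the OBF-1 mutant (-0.70, adjusted p = 0.0122 from limma). Every Cks1b reading without Aiolos lay below every reading with it, which is also the split by fluidics station. In the single mutants limma called 0 of the 20, with 3 in the Aiolos mutant and 1 in the OBF-1 mutant at an unadjusted p under 0.05. Over all probe sets 1.84% were called in the Aiolos mutant and 2.09% in the OBF-1 mutant. The 3 other CDK inhibitors measured were not called in any comparison, nor did any reach an unadjusted p under 0.05.

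Around Myc, 1 of 10 network partners was called in the double mutant, Mxi1, an antagonist of Myc, at 0.38 above wild type (adjusted p = 0.0198 from limma). In the Aiolos mutant 1 was called, Mycl, at 0.42 (adjusted p = 0.0404 from limma). Mycl stayed below 100 on every array, and its comparison crosses stations. Over all probe sets 8.57% were called in the double mutant, 4.28% lower, and 1.84% in the Aiolos mutant. The 1 of 10 in the double mutant lies near the share of the whole chip. Of 12 Myc target genes, 2 were lower in the double mutant, Nop56, a nucleolar protein, by -0.45 and Ldha, lactate dehydrogenase A, by -0.32 (adjusted p = 0.01 and 0.0438). The median of these targets was 0.05 in the double mutant, beside 0.01 over all probe sets.

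Of 19 genes of S phase and mitosis, limma called 0 in the double mutant against wild type, with 7 at an unadjusted p under 0.05 and a median change of -0.18, and 1 in each single mutant. Over all probe sets 8.57% were called in the double mutant, 1.84% in the Aiolos mutant and 2.09% in the OBF-1 mutant. Plk1, a mitotic kinase, read 110 and 129 in double-mutant cells, 108 and 91 in Aiolos mutant cells, 160 and 180 in OBF-1 mutant cells and 107 and 108 in wild type, so the OBF-1 mutant stood above all others (log2 0.66 against wild type, adjusted p = 0.0113 from limma). Aurkb, another mitotic kinase, was lower in the Aiolos mutant than in wild type by -0.45 (adjusted p = 0.0466). The double mutant was lower than the OBF-1 mutant for 4 of the 19, Ccna2, Ccnb2, Plk1 and Aurkb, by -0.44 to -0.51 (adjusted p = 0.037 to 0.0423), across stations. In that comparison 1.03% of all probe sets were called lower. The median of the 19 was 0.12 in the OBF-1 mutant against wild type, and -0.15 in the Aiolos mutant against wild type.

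**Figure D5:**
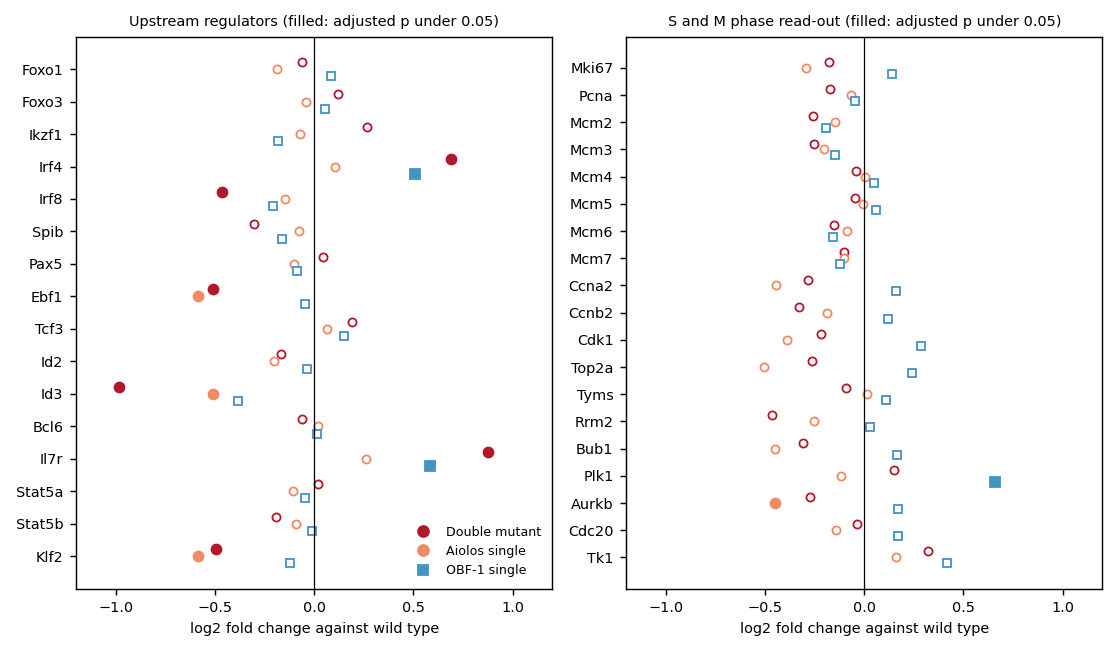
Log2 fold change against wild type of the 16 upstream regulators (left) and 19 genes of S phase and mitosis (right) in the double mutant, the Aiolos mutant and the OBF-1 mutant, 1 probe set a gene; filled symbols had an adjusted p under 0.05. Il7r and Irf4 are filled to the right in the double and OBF-1 mutants, and Plk1 in the OBF-1 mutant (0.66).

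Leaving out single arrays showed which calls rest on them. Against wild type, Ccnd2 1434745_at and 1455956_x_at kept their calls in both the double and the OBF-1 mutant whichever array was left out, as did 1416122_at in the OBF-1 mutant. In the double mutant 1416122_at missed without double-mutant replicate 1 (adjusted p = 0.0603) or wild type replicate 2 (0.0569), and 1430127_a_at and 1448229_s_at missed without double-mutant replicate 1 (0.215 and 0.128), wild type replicate 1 (0.111 and 0.0722) or wild type replicate 2 (0.146 and 0.101). In the OBF-1 mutant 1430127_a_at missed without OBF-1 replicate 1 (0.109), wild type replicate 1 (0.0905) or wild type replicate 2 (0.102). Ccnd3 missed without OBF-1 replicate 1 (0.0537) or wild type replicate 2 (0.0635). Cdkn1a 1424638_at missed without OBF-1 replicate 2 (0.241), wild type replicate 1 (0.147), wild type replicate 2 (0.175) or either Aiolos array (0.0546), and with only the compared genotypes fitted (0.082). Ccnd1 1417420_at, in the double mutant against the Aiolos mutant, missed without double-mutant replicate 2 (0.0611) or Aiolos replicate 1 (0.072). Without moderation of variances every one of these calls was lost.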

How the data were processed

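Pre-BII cell RNA was hybridized to 8 MOE430A arrays, 2 for each of 4 genotypes. The deposited values are linear RMA intensities, made by the authors with background correction, quantile normalization and 1 summary value per probe set. The labels name RMA without a version, and the methods name other software for the study's own work. No column of another series was present. Probe sets (22690, less 64 controls) were named from the platform annotation: 20380 had 1 symbol, 691 several and 1555 none. Log2 intensities were fitted with limma 3.58.1 in R 4.3.3, with 1 mean per genotype over all 8 arrays, 7.69 prior and 4 residual degrees of freedom, two-sided tests and Benjamini-Hochberg adjustment over 22626 probe sets in each of 6 comparisons. The interaction is the change in the double mutant less the changes in the 2 single mutants. The fit was tested on simulated data.

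Raw scanner values were not used here, so the background step could not be redone, and the number of arrays limits the precision. Pools of mice were the replicates according to the methods. The 10 members and the lists were chosen with earlier results of these data known. All member probe sets are described, and from each list at most 4 genes with the smallest adjusted p in the double mutant, besides all called upstream regulators. The mitotic genes that changed elsewhere, and Mycl, were named because few were called. Kit and Flt3 were named after their values were seen. For lists, the probe set with the highest mean log2 value stood for a gene. Alternatives were other normalizations, intensity filters, an added 16, no moderation, a trend and robust fit, the compared genotypes alone, a replicate block, a minimum of 2-fold, and leaving out each array.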

Additional observations from a re-analysis of the deposited data

How the results depend on the processing

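Every called member kept its direction under every alternative run. Member calls, in 22 probe sets, moved as follows. Without moderation of variances no comparison had a called member, so 0 stood against 5 in the double mutant against wild type, 6 in the OBF-1 mutant against wild type and 3 in the double mutant against the Aiolos mutant. With a minimum of 2-fold those counts were 2, 3 and 0. The double mutant against the Aiolos mutant had 1 call with 16 added or with arrays centred on their median. The double mutant against the OBF-1 mutant had 1 with either intensity filter, with quantile normalization applied again or with a trend and robust fit, against 0. The Aiolos mutant against wild type had 1 with only the compared genotypes, against 0. The interaction stayed at 0 under every alternative. Leaving out single arrays gave 2 to 5 for the double mutant against wild type, 3 to 7 for the OBF-1 mutant, 0 to 1 for the Aiolos mutant, 0 to 5 for the double mutant against the Aiolos mutant and 0 to 1 for the double mutant against the OBF-1 mutant. Where that left 1 array in a genotype, it was assumed to vary like the others.

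Same-numbered arrays deviated from their genotype means with r of -0.0875 to 0.103 over all probe sets. Such a correlation cannot show whether particular genes deviated together, so whether the numbers pair the arrays is not known. A replicate block gave 6 calls in the double mutant against wild type, 7 in the OBF-1 mutant, 1 in the Aiolos mutant, 6 in the double mutant against the Aiolos mutant, 0 against the OBF-1 mutant and 0 in the interaction.

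Over all probe sets the calls were 1938, 417, 472, 667, 596 and 42 (double, Aiolos and OBF-1 mutants against wild type, double against Aiolos and against OBF-1 mutant, interaction). Without moderation they were 359, 6, 9, 22, 26 and 0, and with a minimum of 2-fold 253, 38, 102, 128, 83 and 21. Leaving out an array gave 988 to 1888, 55 to 481, 182 to 478, 305 to 624, 244 to 498 and 10 to 37. The interaction had 20 with 16 added. The Aiolos mutant had 251 with only the compared genotypes. Averaging over both stations gave 1135 for loss of OBF-1. Of uncalled members, 2 of 17, 3 of 22, 5 of 16, 9 of 19, 10 of 22 and 8 of 22 changed sign under some alternative, in the same order of comparisons. Of the 22 member probe sets, 11 had a mean of at least 100 in a genotype. The dim ones, below that in every genotype, limit all of Myc, Cdk6 and Ccnd1. They also include Cdkn1a 1421679_a_at, Cdkn1b 1419497_at and Ccnd2 1416123_at, 1416124_at, 1448229_s_at and 1455956_x_at. Ccnd2 1448229_s_at and 1455956_x_at, with wild type means of 84 and 96.7, were called in the double mutant against wild type. Both intensity filters leave them out.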

Other observations

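Replicate 2 of every genotype had more Ccnd2 and less Ccnd3 than replicate 1. For Ccnd2 1416122_at the log2 difference of replicate 2 from replicate 1 was 0.39 in the double mutant, 0.25 in the Aiolos mutant, 0.47 in the OBF-1 mutant and 0.21 in wild type. For Ccnd3 it was -0.15 in the double mutant, -0.03 in the Aiolos mutant, -0.17 in the OBF-1 mutant and -0.13 in wild type. All 5 Ccnd2 probe sets called in the double mutant ran the same way in 4 of 4 genotypes. In all, 8 of 22 member probe sets ran 1 way in every genotype, beside 13.3% of all probe sets. These 8 include the 5 of Ccnd2, which varied together, so they are not a count of separate genes. Whether the numbers pair the arrays is not known.

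Over the 8 arrays, which share 4 genotypes, the genes whose log2 values ran closest to Ccnd2 1455956_x_at among 8939 probe sets were Ube2j1 (r = 0.995), Rgs10 (0.966) and Gtf3c6 (0.965). Rgs10, which encodes a regulator of G protein signalling, averaged 172 in the double mutant, 246 in the Aiolos mutant, 203 in the OBF-1 mutant and 355 in wild type. Closest to Ccnd3 were Fth1 (0.982), Oaf (0.968) and Nup210 (0.962). Nup210, a nuclear pore protein, averaged 1801 in the double mutant, 1563 in the Aiolos mutant, 2011 in the OBF-1 mutant and 1516 in wild type. Closest to Cdkn1a 1424638_at were Tecr (0.978), Fam234b (0.977) and Stard10 (0.972), and closest to Ccnd1 1417420_at were Klhdc2 (0.963), Prkcb (0.962) and Pex2 (0.956).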
